A study of Mus musculus with 7 samples.

Results

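The interferon regulatory factors (IRFs) measured here were Irf1, Irf2, Irf3, Irf4, Irf5, Irf7, Irf8 and Irf9. They were taken by gene name from the table of each library, which gave 8 genes of the 48440 listed. IRFs are transcription factors that share a DNA-binding domain and recognise GAAA repeats in promoters and enhancers. Irf3, Irf5 and Irf7 are activated by kinases downstream of Toll-like and nucleic acid receptors and switch on interferons and inflammatory cytokines. Irf9 is part of the complex ISGF3, which carries the type I interferon signal to the nucleus, while Irf1 and Irf2 act on the same elements as activator and antagonist. Irf4 and Irf8 are best known in dendritic cells (DCs) as lineage factors: in mice, Irf8 is needed for the CD8a/CD103 type (cDC1), and Irf4 for the migration and Th2-priming function of the CD11b+ type.

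RNA was sequenced from CD11b+ migratory DCs of B6 mice, sorted from the lymph node that drains the lung as MHC class II high cells positive for CD11c and CD11b and negative for B220, CD64 and CD103. All mice had received house dust mite allergen with LPS, the bacterial ligand of TLR4, through the nose 24 hours earlier. There were 3 libraries from adults aged 7 weeks and 4 from infants aged 2 to 3 weeks, and the study asked which genes and pathways differ between these ages. No unsensitised animals were analysed here, so all values describe cells after allergen and LPS. Whether a library came from 1 animal or a pool is unstated in the labels, so p-values measure the spread between libraries, which may be partly technical.

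The libraries held 18022302 to 22316484 exon reads. Infant 2 stood apart from the rest: it lay at 73.9 on the first principal component (34.4% of the variance) against -23.0 to 7.80 for the others, and had 13539 CPM (reads relative to the TMM-scaled library total) of the nuclear RNA Malat1 against 3058 to 4411 CPM elsewhere. Infant 1 stood apart on the second component (23.1% of the variance), at -60.5 against -3.90 to 29.4. The sorted type was checked by markers. Ccr7, the homing receptor of migratory DCs, was at 4599 to 6392 CPM and the class II chain H2-Ab1 at 8893 to 19861 CPM. Other genes of the CD11b+ migratory DC list were lower. Sirpa was at 120 to 307 CPM and Itgam, which encodes CD11b, at 9.83 to 21.2 CPM (entry Itgam_1). Mgl2 was at 4.57 to 14.8 CPM and Cd209a at 1.09 to 14.2 CPM. The cDC1 markers Xcr1 and Clec9a were at 0.578 to 3.04 and 1.14 to 2.89 CPM, and Itgae, which encodes CD103, at 0.586 to 3.24 CPM. Other genes of the cDC1 list were higher: Batf3 was at 133 to 193 CPM, and Cd8a at 18.2 to 29.3 CPM in adults and 36.4 to 53.8 CPM in infants. Fcgr1, which encodes the CD64 sorted out, was at 8.63 to 31.6 CPM, and the macrophage gene C1qb at 165 to 585 CPM.

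Promoters of the members were read for elements that IRFs, STATs and their partners bind, since these factors are known to act on IRF genes too. RefSeq promoters on GRCm38.p6, from 250 bases before to 50 bases after each transcription start, were found for 8 of 8 members (11 promoters). On both strands 5 motifs were searched: the interferon-stimulated response element (ISRE, read as GAAA, 2 bases of any kind, GAAA), the element of Irf4 or Irf8 with an Ets partner such as PU.1 (EICE, read as GGAA, 2 bases of any kind, GAAA), the STAT element TTCNNNGAA (GAS), the AP-1 element TGANTCA and the kappaB element (GGGA, 2 bases of any kind, TTCC). The stretches below are the upstream parts that hold a match, on the plus strand, 5′ to 3′, with the matches in capitals. They belong to Irf2 (chr8:46739495-46739547), Irf8 (chr8:120736169-120736231) and Irf1 (chr11:53769906-53769950).
Irf2: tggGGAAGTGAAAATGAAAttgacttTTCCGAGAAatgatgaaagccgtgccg
Irf8: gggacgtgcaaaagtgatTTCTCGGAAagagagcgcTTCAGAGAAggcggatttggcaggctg
Irf1: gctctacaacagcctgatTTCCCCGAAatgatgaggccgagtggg
In Irf2 the first capital run joins an EICE match that begins 247 bases before the start and an ISRE match that begins at 241, which overlap, and a GAS match follows at 224. Irf8 had GAS matches at 171 and 153 bases before the start, and Irf1 had a GAS match at 90. Thus 3 of the 8 genes had a GAS match, present in 8.30% of all 32851 promoters, and 1 had ISRE and EICE matches, present in 3.44% and 2.72%. No member's window held these AP-1 letters (7.81% of all promoters) or kappaB letters (1.47%). A match describes letters only and does not show binding.

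All 8 genes were expressed in every library and all passed the filter on low counts. Levels of different genes were compared per length, as RPKM (reads scaled to exon length and to the mapped reads of the library). In adults the order was Irf1 (216 ± 28.1 RPKM, SD, n = 3), Irf5 (151 ± 6.41), Irf8 (107 ± 25.5), Irf7 (75.5 ± 8.31), Irf9 (34.8 ± 2.24), Irf3 (21.5 ± 0.858), Irf2 (18.9 ± 1.13) and Irf4 (9.51 ± 1.86). The order of the means was the same in infants, with Irf1 at 191 ± 66.9 RPKM (SD, n = 4), Irf5 at 138 ± 12.4, Irf8 at 132 ± 19.9, Irf7 at 86.4 ± 36.7, Irf9 at 32.7 ± 2.46, Irf3 at 24.7 ± 3.44, Irf2 at 18.5 ± 1.58 and Irf4 at 6.36 ± 3.02. Irf4 was thus the member with the lowest mean level at both ages in a DC type known for its dependence on Irf4. Irf1 lay above Irf5 in 6 of 7 libraries, infant 2 being the exception, and Irf5 lay above Irf8 in 5 of 7, in all adults but in only 2 of 4 infants. Every other neighbouring pair kept its order in 7 of 7 libraries.

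The place of Irf8 depended on how reads were assigned. Only 56.1% of its exon reads mapped uniquely, against 96.2% for Irf3 and 99.98% to 100% for the other 6 members. The Irf8 span lies whole inside the predicted gene Gm20388 on the same strand, which held 263 to 565 exon reads per library but at most 1 unique read. Whether this overlap lowers the unique share was not tested. From unique reads, Irf8 was at 60.1 ± 14.9 RPKM over the 3 adults and 74.3 ± 11.3 RPKM over the 4 infants (SD), above Irf7 in 2 of 7 libraries in place of 7 of 7. The unique share of Irf8 lay between 54.9% and 57.4% in every library.

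**Figure D1:**
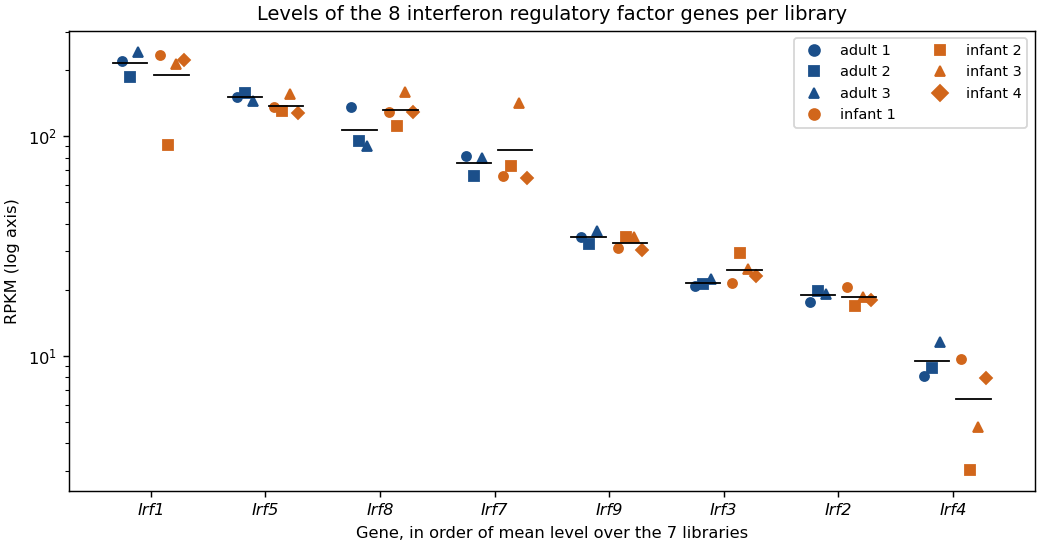
Level of each IRF gene in each library in RPKM (log axis), with adults in blue, infants in orange and bars at the group means. Irf1, Irf5 and Irf8 were the 3 highest and Irf4 the lowest by mean, infant 2 was low for Irf1 and Irf4, and infant 3 was high for Irf7.

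None of the 8 genes passed the test of infants against adults by edgeR (quasi-likelihood F test, p-values adjusted by Benjamini and Hochberg's method over the 12261 genes tested), where 2 genes (0.0163%) were called. None passed by DESeq2, which called 1.57% of genes, and none had an unadjusted p under 0.05 by edgeR, where 13.3% of genes did. The adult and infant libraries overlapped for all 8, while 15.5% of genes tested had groups that did not overlap (7.97% higher and 7.58% lower in infants). The log2 fold changes, infant over adult, ran from -0.57 for Irf4 to 0.33 for Irf8. In bulk RNA, fewer cells of a type and less RNA per cell cannot be told apart, and that holds for every difference below.

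**Figure D2:**
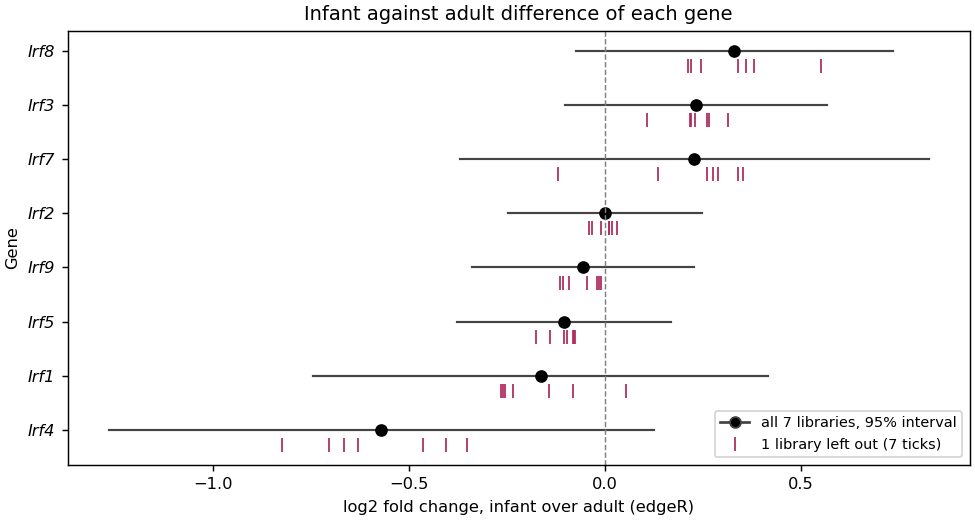
Log2 fold change of each IRF gene, infant over adult, by edgeR (points, with 95% intervals), and the value with each library left out in turn (ticks). All 8 intervals included 0, and the ticks crossed 0 for Irf1, Irf2 and Irf7.

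The lineage factor Irf4 (ENSMUSG00000021356, chr13:30749226-30766927, plus strand, mm10) had the widest difference. Its levels were 40.9, 43.4 and 57.6 CPM in adults 1 to 3 and 47.1, 16.2, 24.3 and 39.7 CPM in infants 1 to 4. Infants 2 and 3 lay below every adult, infant 4 just below the lowest adult, and infant 1 within the adult range. The log2 fold change was -0.57 (SE 0.31, 95% interval -1.27 to 0.13, adjusted p = 0.433 by edgeR), an interval of 0.416 to 1.09 times the adult level. Without infant 1 it was -0.82 (unadjusted p = 0.0222, adjusted p = 0.207 by edgeR), and without infant 2 it was -0.35. No listed gene overlaps Irf4, and all of its reads mapped uniquely.

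Irf4 also differed from the other members in where its reads lay. Exon reads that crossed an exon junction were 21.3, 20.4 and 18.6 per 100 exon reads in adults 1 to 3, and 19, 12.7, 12.7 and 18.3 in infants 1 to 4. The same 2 infants with the lowest Irf4 level had the lowest share, though they rest on 39 and 54 junction reads. The other 7 members had 49.3 to 79.8 junction reads per 100 exon reads, and each varied less between libraries. For Irf4 the ages overlapped, but for 3 members every infant lay below every adult: Irf1 (49.5 to 51.8 in infants and 52.1 to 52.9 in adults), Irf3 (75.1 to 77.6 and 78.2 to 79.8) and Irf9 (49.3 to 50.3 and 50.9 to 51.8). These differences were not tested, and the shares of the remaining members overlapped. How many of all genes separate the ages in this way was not computed, so the count of 3 has no background. Over whole libraries, junction reads were 56.0% to 57.5% of exon reads in adults and 56.8% to 57.6% in infants. On junction reads alone, an alternative added after the data were seen, Irf4 was at -0.82 ± 0.42 (log2 fold change and SE, adjusted p = 0.420 by edgeR).

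**Figure D3:**
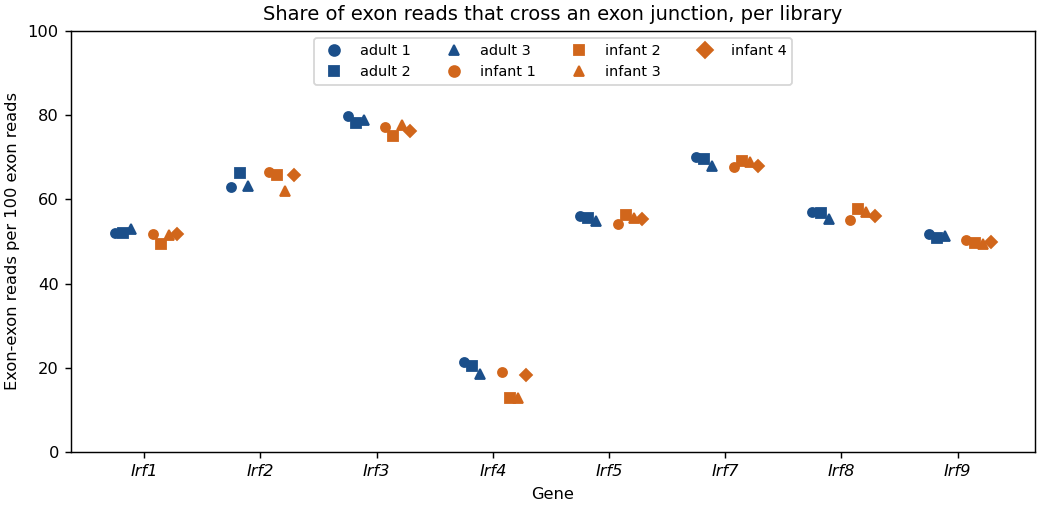
Exon-exon reads per 100 exon reads for each IRF gene in each library, adults in blue and infants in orange. Irf4 lay at 12.7 to 21.3, with infants 2 and 3 lowest, and the other 7 genes at 49.3 to 79.8. For Irf1, Irf3 and Irf9 every infant lay below every adult by a small margin. The share of all genes that do so was not computed.

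Irf8 (ENSMUSG00000041515, chr8:120736358-120756694, plus strand), the partner lineage factor and a repressor or activator with PU.1, was at 1025, 705 and 666 CPM in adults 1 to 3. It was at 941, 894, 1222 and 959 CPM in infants 1 to 4. All 4 infants lay above adults 2 and 3, and adult 1 lay above 3 of the 4 infants. The log2 fold change was 0.33 (SE 0.18, 95% interval -0.07 to 0.73, adjusted p = 0.433 by edgeR). Without adult 1 it was 0.55 (unadjusted p = 0.0125, adjusted p = 0.498 by edgeR), and on uniquely mapped reads it was 0.33. Cd8a, a marker of the DC type that needs Irf8, did not overlap between the ages and was called higher in infants by DESeq2 (log2 fold change 0.83 ± 0.20 by edgeR, SE, where adjusted p = 0.230). Itgae of the same list went the other way, lower in infants without overlap (log2 fold change -1.28, SE 0.47, unadjusted p = 0.0209 by edgeR). Of the 10 cDC1 markers tested, 6 were below 0 against 49.8% of all genes, with a median log2 fold change of -0.19. The 11 cDC1 markers summed to 197 to 234 CPM in adults and 222 to 266 CPM in infants. Batf3 alone held 133 to 193 CPM of these sums. The part of the cDC1 markers in the Irf8 value was not tested.

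The RPKM values of Irf4 as a percent of those of Irf8, a ratio corrected for gene length, were 5.96, 9.21 and 12.9 in adults 1 to 3. They were 7.49, 2.71, 2.97 and 6.19 in infants 1 to 4. Infants 2 and 3 lay below every adult, and infants 1 and 4 lay within the adult range. The mean log2 ratio was -3.49 ± 0.56 in adults (SD, n = 3) and -4.51 ± 0.74 in infants (SD, n = 4), a difference of -1.02 (two-sided exact permutation test, p = 0.171, adjusted p = 0.514 over 3 ratios). With 35 regroupings of 3 against 4 libraries the smallest p this test can give is 0.0571, so it cannot pass 0.05.

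Of 15 genes linked to Irf4 in mouse DCs, here called the Irf4-dependent list, 13 could be tested and none passed by edgeR. Whether each of them, Klf4 included, depends on Irf4 was not tested. Ccr7, Mgl2 and Ccl22 are also among the CD11b+ migratory DC markers, and Ciita is also among the IRF1-type targets below. At an unadjusted p under 0.05, 3 were lower in infants (Il6, Klf4 and Ccl17) and none higher, against 6.73% lower and 6.53% higher of all genes, and DESeq2 called Klf4 and Ccl17 lower. The median log2 fold change of the list was -0.24, with 8 of 13 below 0, against 0.0016 and 49.8% over all genes. Ccr7, the homing receptor, averaged 5853 ± 471 CPM over 3 adult and 4954 ± 294 CPM over 4 infant libraries (SD), with a log2 fold change of -0.24 and an SE of 0.12. Cst3, a cathepsin inhibitor, stood at 0.12 on that scale (SE 0.15) and the Th2 chemokine Ccl22 at -0.42 (SE 0.22). The mean centred log2 CPM of the list was 0.13, 0.22 and 0.29 in adults 1 to 3 and -0.26, -0.28, 0.03 and -0.13 in infants 1 to 4. Infant 1, whose Irf4 level lay within the adult range, was the second lowest on this list, and infant 3, whose Irf4 was below every adult, was the highest infant. The count of 3 became 2 without adult 2 or adult 3, 4 without adult 1, infant 1 or infant 2, and 5 without infant 3. At that level 1 gene was higher without infant 1.

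Irf3 (ENSMUSG00000003184, chr7:44997648-45002848, plus strand), the constitutive factor that TBK1 phosphorylates downstream of TLR3, TLR4 and STING, was at 70.8, 71.0 and 75.3 CPM in adults 1 to 3. It was at 70.4, 106, 85.7 and 77.9 CPM in infants 1 to 4. The adults lay close together, infants 2, 3 and 4 lay above all of them, and infant 1 lay below. Infants over adults, the log2 fold change was 0.23 (SE 0.15, 95% interval -0.10 to 0.57, adjusted p = 0.489 by edgeR), and 0.11 without infant 2. The opposite-strand gene Bcl2l12 overlaps Irf3 by 1065 bp and had 264 to 419 exon reads per library, and the strand setting of the read counting is unstated in the sources used here.

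Irf7 (ENSMUSG00000025498, chr7:141262706-141266481, minus strand), the interferon-induced factor that amplifies type I interferon production, was at 261, 209 and 252 CPM in adults 1 to 3. It was at 206, 252, 463 and 207 CPM in infants 1 to 4. Infant 3 was far above the other 6 libraries, which spanned a common range. Between the ages, the log2 fold change was 0.23 (SE 0.27, 95% interval -0.37 to 0.83, adjusted p = 0.714 by edgeR), and without infant 3 it was -0.12. Infant 3 was also the highest library for the monocyte list, at 0.69 against -0.78 to 0.42 in mean centred log2 CPM, and its summed monocyte level was 1066 CPM. Its summed level of macrophage markers, 1327 CPM, was the highest too, against 462 to 1058 CPM elsewhere, with C1qa, C1qb, C1qc and Fcgr1 all at their highest there. Its macrophage score of 0.37, which weights each gene alike, lay below those of adults 1 and 3 (0.45 and 0.49). The part of these markers in the Irf7 value was not tested.

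Irf5 (ENSMUSG00000029771, chr6:29526625-29541871, plus strand), which drives inflammatory cytokines downstream of MyD88, was at 468, 480 and 441 CPM in adults 1 to 3. It was at 410, 428, 490 and 394 CPM in infants 1 to 4. Infants 1, 2 and 4 lay below every adult and infant 3 lay above all. By the test of age, the log2 fold change was -0.10 (SE 0.12, 95% interval -0.38 to 0.17, adjusted p = 0.712 by edgeR), which bounds the infant level between 0.770 and 1.12 times the adult level. Tnpo3 on the opposite strand overlaps Irf5 by 1045 bp and had 1043 to 1959 exon reads per library.

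The ratio of the induced Irf7 to the constitutive Irf3 had a mean log2 value of 1.81 ± 0.16 in adults (SD, n = 3) and 1.74 ± 0.53 in infants (SD, n = 4). The difference was -0.07 (two-sided exact permutation test, p = 0.857, adjusted p = 0.857 over 3 ratios). Infant 3, at 2.51, lay above every adult, and infants 1, 2 and 4 lay below every adult, at 1.626, 1.323 and 1.486 against 1.635 to 1.958.

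The receptors, adaptors and kinases that act before Irf3, Irf5 and Irf7 were a list of 24 genes, all of them tested. None passed by either tool, and at an unadjusted p under 0.05 there were 2, both lower in infants: Ticam2 and Traf6, adaptors of the TLR pathways. That is 2 of 24 against 6.73% of all genes lower at that level, a share near the background. The median log2 fold change was -0.20, with 20 of 24 below 0 against 49.8% of all genes. The 3 most abundant were Tank, a scaffold of TBK1, at a log2 fold change of 0.04 (SE 0.12), the kinase Ikbkb at -0.07 (SE 0.11) and Tmem173, which encodes STING, at 0.02 (SE 0.11). The count of 2 became 0 without adult 3 and 4 without infant 3.

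Interferon genes themselves were almost unread. None of the 21 listed passed the filter on low counts, and all of them together had 13 to 55 exon reads per adult library and 2 to 5 per infant library. The ranges did not overlap, but the sums hold different genes in different libraries. Ifng, made mainly by T and NK cells, had 44 reads over all libraries, at 0.808, 0.541 and 0.245 CPM in adults 1 to 3 and 0.237, 0.0526, 0 and 0.160 CPM in infants 1 to 4, where 3 reads correspond to 0.135 to 0.171 CPM. All 14 reads of Ifna1 lay in adult 3, and Ifnb1 had 12 reads in all. The NK cell markers summed to 37.9, 13.8 and 12.0 CPM in adults 1 to 3 and 6.10 to 15.4 CPM in infants, so that adult 1 alone lay above the infants. The T cell markers summed to 6.81 to 13.7 CPM in adults and 7.24 to 12.1 CPM in infants. The part of either list in the Ifng reads was not tested.

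Irf9 (ENSMUSG00000002325, chr14:55603571-55610030, plus strand), the DNA-binding subunit of ISGF3, was at 201, 184 and 209 CPM in adults 1 to 3. It was at 172, 213, 204 and 173 CPM in infants 1 to 4. Infants 1 and 4 lay below every adult and infant 2 above all of them. Its log2 fold change was -0.06 (SE 0.13, 95% interval -0.34 to 0.23, adjusted p = 0.863 by edgeR), an interval of 0.790 to 1.17 times the adult level.

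Of the 11 genes for interferon receptors, JAKs and STATs, none passed by edgeR or DESeq2, and at an unadjusted p under 0.05, 3 of 11 were lower in infants and none higher, against 6.73% and 6.53% of all genes. Among them were Ifnar1, a chain of the type I interferon receptor, and the kinase Jak2. Jak2 was at -0.39 (SE 0.15) and Jak1 at -0.29 (SE 0.13) as log2 fold changes. The list's median was -0.29, with 8 of 11 below 0 against 49.8% of all genes. The count of 3 became 1 without adult 1 and 5 without infant 1 or infant 4.

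ISGF3-type targets, the antiviral genes with ISREs that Irf9, Irf7 and Irf3 act on, were 28 and all could be tested. None passed by edgeR or DESeq2. At an unadjusted p under 0.05, 3 were lower in infants (Oas2, Ifi44 and Trim30a) and Isg15 was higher, of 28, against 6.73% and 6.53% of all genes. Both counts were near those shares. The median log2 fold change was -0.20, with 20 of 28 below 0 against 49.8% of all genes. Among the most abundant, Usp18, which limits interferon receptor signalling, was at a log2 fold change of 0.12 (SE 0.14) and Ifi35 at 0.17 (SE 0.18). Isg15, a ubiquitin-like modifier, was at 160, 166 and 152 CPM in adults 1 to 3 and 161, 178, 303 and 249 CPM in infants 1 to 4, with a log2 fold change of 0.48 ± 0.21 (SE) and an adjusted p of 0.361 by edgeR. The mean centred log2 CPM of the list was 0.16, 0.05 and 0.19 in adults 1 to 3 and -0.19, -0.25, 0.32 and -0.28 in infants 1 to 4. Infant 3, the library with the highest Irf7, lay above every adult on this list and the other infants lay below every adult. Without infant 3 the genes lower in infants at an unadjusted p under 0.05 numbered 8, and without adult 3 they numbered 1. Isg15 no longer had an unadjusted p under 0.05 without any 1 of the adults, infant 3 or infant 4.

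Irf1 (ENSMUSG00000018899, chr11:53770014-53778374, plus strand), the activator induced by interferon-gamma and NF-kB, was at 935, 777 and 1010 CPM in adults 1 to 3. It was at 966, 413, 921 and 940 CPM in infants 1 to 4. Infant 2 lay far below the other 6 libraries, and the other 3 infants lay within the adult range. Infants over adults, the log2 fold change was -0.16 (SE 0.26, 95% interval -0.74 to 0.42, adjusted p = 0.796 by edgeR). Without infant 2 it was 0.05.

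Irf2 (ENSMUSG00000031627, chr8:46739732-46847458, plus strand), which competes with Irf1 for its sites, was the steadiest member by its interval. It was at 67.7, 74.9 and 73.0 CPM in adults 1 to 3 and 76.7, 68.8, 73.0 and 68.9 CPM in infants 1 to 4. The libraries of both ages were interleaved. Between the ages, the log2 fold change was 0.00078 (SE 0.11, 95% interval -0.25 to 0.25, adjusted p = 0.998 by edgeR), which bounds the infant level between 0.842 and 1.19 times the adult level.

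The log2 ratio of Irf1 to Irf2 was 3.65, 3.24 and 3.65 in adults 1 to 3 and 3.52, 2.45, 3.52 and 3.63 in infants 1 to 4, with infant 2 below all others. The mean difference was -0.23 (two-sided exact permutation test, p = 0.629, adjusted p = 0.857 over 3 ratios), and 0.04 without infant 2.

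IRF1-type targets, the genes of the interferon-gamma response that Irf1 binds, were 26 and all could be tested. None passed by edgeR, and DESeq2 called Irgm1 and Ptgs2 lower in infants. At an unadjusted p under 0.05, 8 were lower (Gbp3, Gbp5, Irgm1, Irgm2, Cxcl10, Nlrc5, Cd274 and Ptgs2), which are GTPases, a chemokine, a class I transactivator, PD-L1 and a prostaglandin enzyme, and Ido1 was higher. That is 8 of 26 lower and 1 higher, against 6.73% and 6.53% of all genes. The median log2 fold change was -0.29, with 22 of 26 below 0 against 49.8% of all genes. Of the most abundant members, B2m, the light chain of MHC class I, was at -0.16 (SE 0.27), the immunoproteasome subunit Psmb8 at 0.30 (SE 0.14) and the peptide transporter Tap1 at -0.09 (SE 0.11) as log2 fold changes. The mean centred log2 CPM was 0.24, 0.25 and 0.45 in adults 1 to 3 and -0.24, -0.48, 0.15 and -0.35 in infants 1 to 4. Every adult lay above every infant, and Irf1 itself was within the adult range in infants 1, 3 and 4. This separation was not particular to the list. It was also seen for the Irf4-dependent list and the receptor, JAK and STAT list (0.06 to 0.22 in adults, -0.28 to 0.03 in infants). The lists below of DNA-binding partners (0.17 to 0.21 and -0.37 to -0.0076) and of restraint (0.07 to 0.17 and -0.34 to 0.04) showed it too. The upstream and ISGF3-type lists overlapped. The markers of CD11b+ migratory DCs were also higher in every adult (0.08 to 0.28) than in every infant (-0.34 to 0.0048) on this scale. Their median log2 fold change was -0.29, with 9 of 12 below 0, and Flt3 and Zbtb46 were lower at an unadjusted p under 0.05 by edgeR. H2-Ab1 (0.37), Cd74 (0.29) and Fscn1 (0.09) had log2 fold changes above 0. The summed marker levels overlapped, at 40336 to 47267 CPM in adults and 41200 to 63134 CPM in infants. The part of these markers in the target lists was not tested. The count of 8 became 4, 5 and 3 without adult 1, 2 and 3. It stayed at 8 without infant 1 or infant 2, rose to 11 without infant 3 and fell to 5 without infant 4. The 1 higher gene became 0 without adult 1, adult 3 or infant 2, and 2 without infant 1.

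**Figure D4:**
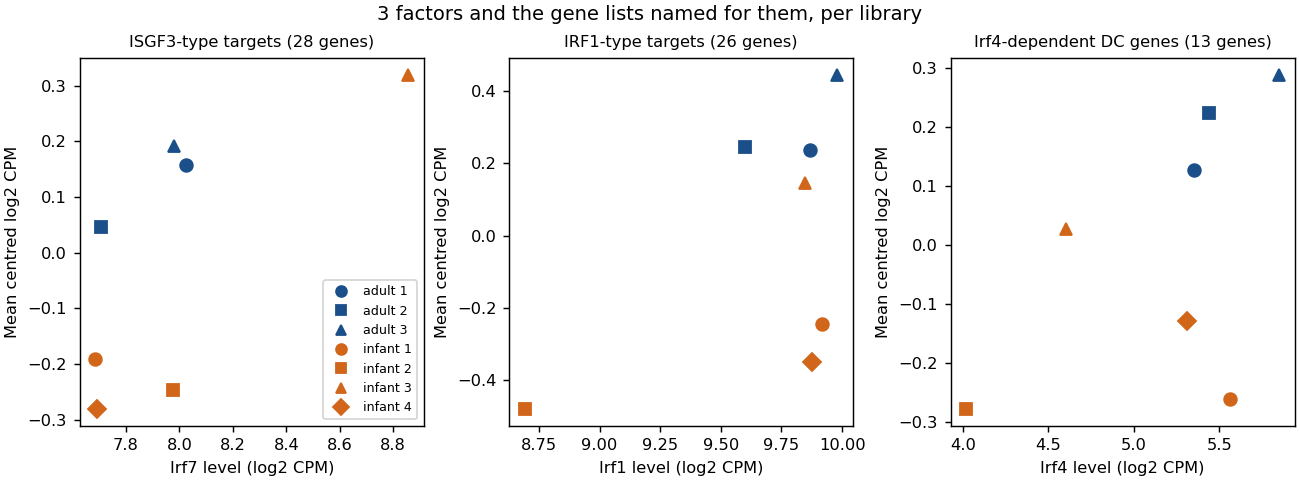
Level of Irf7, Irf1 and Irf4 (log2 CPM) against the mean centred log2 CPM of a list of genes named for each, with 1 point per library. Infant 3 was highest for Irf7 and the ISGF3-type list, and all adults lay above all infants on the IRF1-type and Irf4-dependent lists. The receptor, DNA-binding partner and restraint lists, not shown, separated the ages too.

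Factors that bind DNA beside IRFs, such as PU.1, BATF and AP-1 proteins, were put in a list of 20, all of them tested. The list also holds Id2, which does not itself bind DNA. None passed by edgeR. At an unadjusted p under 0.05, 6 of 20 were lower in infants (Jun, Jund, Id2, Prdm1, Stat3 and Rel) and none higher, against 6.73% and 6.53% of all genes. DESeq2, which called 1.57% of all genes, called Jun, Jund and Rel lower. The median log2 fold change was -0.28, with 13 of 20 below 0 against 49.8% of all genes. Jun, the AP-1 subunit that pairs with BATF at Irf4 and Irf8 sites, was at 449, 339 and 279 CPM in adults 1 to 3 and 160, 181, 156 and 193 CPM in infants 1 to 4, with a log2 fold change of -1.04 ± 0.17 (SE) and an adjusted p of 0.141 by edgeR. The most abundant were Id2 at -0.51 (SE 0.18), Junb at -0.36 (SE 0.21) and Stat3 at -0.40 (SE 0.12). The Ets partners Spi1, which encodes PU.1, and Spib were at 0.16 (SE 0.15) and -0.53 (SE 0.31), chosen after their values were seen. Jun and Junb also belong to the list of immediate-early and heat-shock genes, which can follow cell handling, though handling was not measured here. Of its 16 tested genes, 14 were lower in infants at an unadjusted p under 0.05, against 6.73% of all genes. That list was at 0.58 to 0.92 in adults and -0.80 to -0.34 in infants in mean centred log2 CPM, and its part in the partner and target lists was not tested.

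Genes that restrain IRFs or the signals before them were 15 and all could be tested. None passed by edgeR, and DESeq2 called Socs3 lower in infants. At an unadjusted p under 0.05, 3 were lower (Cyld, Tnfaip3 and Socs3) and 1 was higher, of 15, against 6.73% and 6.53% of all genes. The median log2 fold change was -0.24, with 11 of 15 below 0 against 49.8% of all genes. Tnfaip3, which encodes A20, was at a log2 fold change of -0.67 (SE 0.21), Usp18 at 0.12 (SE 0.14) and Rbck1 at -0.0015 (SE 0.11). Usp18 is also among the ISGF3-type targets and Socs1 is also among the IRF1-type targets. No gene of the list was higher at an unadjusted p under 0.05 without any 1 of the adults, infant 2 or infant 3.

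Intron reads per 100 exon reads, which hold unspliced RNA, were also compared for the 8 genes. They ranged from 0.46 to 0.82 in Irf7 and 0.50 to 1.35 in Irf8 up to 11.7 to 17.7 in Irf2. For Irf8 the mean was 1.16 ± 0.167 in adults (SD, n = 3) and 0.830 ± 0.266 in infants (SD, n = 4), and for Irf1 it was 6.42 ± 1.14 and 7.55 ± 0.636. These 2 had the lowest p of the 8 genes, 0.171 by a two-sided exact permutation test with adjusted p = 0.686, and none passed.

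Over the 7 libraries the members did not move as a block. As descriptions over 7 libraries of the same cell type, Pearson's r of log2 CPM was -0.91 between Irf3 and Irf4 (-0.74 without infant 2) and -0.48 between Irf4 and Irf8 (-0.82 without infant 2). Between Irf1 and Irf4 it was 0.81, and 0.21 without infant 2, so that value rested on infant 2. Irf7 had r of 0.62 with Irf5, 0.60 with Irf8 and 0.58 with Irf9.

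The genes whose levels most resembled each member were sought among 8015 genes whose average log2 CPM was 3 or more, by Pearson's r over the 7 libraries. For Irf4 these were Ttpal, Prkd2 and Ppp2r2a (r 0.993, 0.993 and 0.992, and 0.981 to 0.984 without infant 2). For Irf8 they were Plb1, Rsph3b and Kcmf1 (r 0.970, 0.965 and 0.963), and for Irf3 Ube2n, Atpaf2 and Tor2a (r 0.997, 0.997 and 0.996). For Irf7 they were Lap3, Smpdl3b and Csf3r (r 0.970, 0.965 and 0.950), and for Irf5 they included Oas1g and Brap (r 0.953 and 0.950). For Irf9 they were Sept10, Itgb5 and Srd5a3 (r 0.972, 0.970 and 0.959), and for Irf2 Trim5, Mtap and Atf1 (r 0.923, 0.918 and 0.916). Those of Irf1 were Vipas39, Got2 and Ssb (r 0.989, 0.988 and 0.987), where r without infant 2 was 0.839, 0.834 and 0.790. All of these values are over 7 libraries, which share depth and cell make-up between the genes compared.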

How the data were processed

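Each deposited file held 1 library with 1 entry per gene, all of them named. The authors deposited read counts as whole numbers (exon, exon-exon, intron, unique and total), RPKM values and TPM values, per the file headers. TPM was not used in a test. The submitters' processing notes name, without roles, Cuffdiff 2.2.1, Cuffnorm 2.2.1, Cufflinks 2.2.1.0, TopHat, TopHat2 (2.0.14, 2.1.0) and mm10. The program behind the tables, its annotation and its strand setting are unstated in the sources used here. Libraries were grouped by the age in their labels.

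Total exon reads (18022302 to 22316484 per library, which sets the precision of low genes) were filtered with filterByExpr and scaled by TMM in edgeR 4.0.16 under R 4.3.3. Age was tested with glmQLFTest after a robust glmQLFit. Benjamini-Hochberg adjustment was over 12261 genes, at a threshold of 0.05. CPM uses TMM-scaled sizes. A log2 fold change above 0 is higher in infants, and its SE is its size divided by the square root of F. A mean centred log2 CPM is the mean over a list's tested genes of each gene's deviation from its mean over libraries. Ratios and intron shares were compared with exact permutation tests (scipy 1.17.1). Intervals and read limits cover counting error or library spread only.

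The members and the gene lists were chosen with earlier results of these data known. Named genes were the 8 members, the 3 most abundant of each list, the 3 genes most like each member (predicted, immunoglobulin and T cell receptor names left out), Malat1 and overlapping genes. List genes named for an unadjusted p or a DESeq2 call, and marker genes given as checks, were picked after their values were seen. Some genes that the rule names are not reported here. Replicates differed beyond sampling noise. Alternatives were DESeq2 1.42.0, limma 3.58.1 (voom, and trend on log2 of RPKM plus 1 or 0.1), other scaling and filters, unique reads, a replicate block and each library left out. After the data were seen, junction reads and library quality weights were added. Promoter sequences are RefSeq's on GRCm38.p6.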

Additional observations from a re-analysis of the deposited data

Results flagged for a closer look

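In 35 values tested over the 4 infant libraries, the highest or lowest library lay further from the others than Dixon's 95% limit for groups of 4 allows in 5 cases, where chance gives about 1 in 20. Infant 2 was low for Irf1, at 413 CPM against 921 to 966 CPM in the other infants. It was low for Irf1 junction reads per 100 exon reads, at 49.5 against 51.6 to 51.8. It was also low for the log2 ratio of Irf1 to Irf2, at 2.45 against 3.52 to 3.63, which uses the same Irf1 reads. Infant 3 was low for Irf2 junction reads per 100 exon reads, at 62.0 against 65.9 to 66.5. Infant 3 was high for the mean centred log2 CPM of ISGF3-type targets, at 0.32 against -0.28 to -0.19. The Irf7 level of infant 3, at 463 CPM, did not pass the same limit.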

How the results depend on the processing

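No IRF gene passed under any of 21 alternative settings per member, and the directions of Irf3, Irf4, Irf5, Irf8 and Irf9 held in all of them. The number of genes changed, 2 of 12261, was 8 with no filter on low counts, 193 by DESeq2, 110 with library quality weights, and 1 each with the replicate block, on log2 RPKM (either pseudocount, or no filter) and on exon-exon reads. Leaving out 1 library gave 2 to 10, the 10 without adult 1. Irf1 was at 0.029 with library weights. Irf2, near 0, was at -0.0031 with upper-quartile factors, -0.021 with no filter, -0.0075 with a filter of 5 CPM, -0.0055 on unique reads, -0.027 on log2 RPKM, also with no filter, -0.028 with a pseudocount of 0.1 and -0.0013 with library weights.

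Leaving out each library gave -0.26 to 0.054 for Irf1, -0.040 to 0.031 for Irf2, 0.11 to 0.31 for Irf3, -0.82 to -0.35 for Irf4, -0.17 to -0.07 for Irf5, -0.12 to 0.35 for Irf7, 0.21 to 0.55 for Irf8 and -0.12 to -0.0098 for Irf9. The ratios ran from -1.31 to -0.75 (Irf4 to Irf8), -0.37 to 0.042 (Irf1 to Irf2) and -0.33 to 0.069 (Irf7 to Irf3). Log2 differences in intron reads per 100 exon reads ran from 0.09 to 0.33 (Irf1), -0.25 to -0.05 (Irf2), -0.14 to 0.21 (Irf3), -0.47 to -0.12 (Irf4), -0.24 to 0.027 (Irf5), -0.38 to 0.00031 (Irf7), -0.70 to -0.31 (Irf8) and -0.32 to 0.093 (Irf9). Per 100 exon-exon reads, the intron difference of Irf4 was 0.082. Where a sign turned, the cause was not tested.

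Adults and infants share replicate numbers 1 to 3, but same-numbered libraries deviated together with correlations of only 0.03, -0.04 and 0.09. Adults 1 and 2 correlated best with infant 4, and adult 3 with infant 3 (0.088, against 0.087 with infant 2). With so few libraries these correlations cannot tell whether a shared number marks a pairing. With the replicate block, Irf4 was at -0.82 (adjusted p = 0.414 by edgeR), the ratio of Irf7 to Irf3 at 0.015 and the intron difference of Irf9 at 0.093. With 3 and 4 libraries, differences inside the printed intervals were not detectable, and the ratio and intron tests cannot reach 0.05.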
